A study of Mus musculus with 16 samples.

Results

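The 10 genes described here, of 34832 gene names on the array, make up the MHC class II presentation machinery as the array names it, together with its master regulator. They are H2-Aa, H2-Ab1, H2-Ea-ps and H2-Eb1, which encode chains of the class II molecules, Cd74, the invariant chain, H2-DMa, H2-DMb1 and H2-DMb2, chains of the peptide editor H2-M, H2-Ob, a chain of its inhibitor H2-O, and Ciita, the transactivator. Every non-control probe that carries one of these gene names was taken, which gave 14 of the 55681 probes on the array. Of the 14, 13 were among the 32881 probes that reached a signal well above background on 4 or more of the 16 arrays and were tested, and the probe of H2-Ea-ps was not.

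The arrays measured total RNA of splenic B cells purified on anti-B220 beads. B220 marks mouse B cells, and plasmacytoid dendritic cells also carry it. Deficient cells came from mice without the 3'RR, the enhancer cluster downstream of the immunoglobulin heavy chain genes, and per the labels they carry this knock-out on the IgH allele of 129 origin within a BALBC background. The strain entry of the deficient samples is BALBC and that of the wild-type samples is 129, so genotype and strain entry cannot be told apart in any comparison made here. Slide 1 held 4 deficient arrays and 4 wild-type ones, and so did slide 2. On slide 1 all wild-type arrays lay at lower-numbered positions than all deficient arrays, and on slide 2 this order was reversed. Genotype and position therefore cannot be told apart within either slide. A change of the genotype difference between slides carries the same limit, and an effect of position was not tested. All samples have a RIN number of 9 and 0.2 µg of RNA in the labels, and no treatment, age or sex is given for them here. The design text of the series mentions 4 mice of each genotype, whereas 8 arrays of each are analysed here. Whether every array is a separate animal is not stated, and the p-values then cover only the spread among these arrays, part of which may be technical. Slide, scan day and the mice placed on a slide cannot be told apart.

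Class II molecules are pairs of an alpha and a beta chain, I-A (H2-Aa with H2-Ab1) and I-E (H2-Ea with H2-Eb1), that show peptides from the endosomal pathway to CD4 T cells. The invariant chain holds the groove until it is degraded, after which H2-M exchanges the remaining fragment for peptides, and H2-O restrains H2-M in B cells. Transcription of the class II chain genes depends on Ciita, as does much of that of their partners. Ciita binds no DNA itself and is recruited to promoters by proteins on the X and Y boxes, among them the RFX complex and NF-Y. B cells express class II constitutively. In mice of the H2-b haplotype, which 129 strains carry, the promoter of the alpha chain gene of I-E has a deletion and the gene is silent, whereas B cells of H2-d mice such as BALB/c are known to transcribe it.

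The probe for the I-E alpha chain gene, named H2-Ea-ps in the array design, is shown first because its signal bears on the haplotype. It lies at chr17:34481469-34481528 (mm9, minus strand).
H2-Ea-ps probe: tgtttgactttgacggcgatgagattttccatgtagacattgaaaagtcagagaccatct
The probes of H2-Aa (chr17:34421285-34421344, mm9, minus strand) and H2-DMb2 (chr17:34284764-34284823, mm9, plus strand) are shown because they carried the differences between genotypes that passed the test on slide 1.
H2-Aa probe: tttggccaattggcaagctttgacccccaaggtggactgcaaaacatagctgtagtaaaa
H2-DMb2 probe: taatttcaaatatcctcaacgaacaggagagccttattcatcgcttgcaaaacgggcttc
The pair of H2-Ab1 probes overlaps by 51 bases and differs at 1 of them, T51C from probe 2 to probe 1, with positions counted from 1 at the 5′ end of probe 2. The 24 bases around it (chr17:34406332-34406355, mm9, plus strand) have the differing base in capitals.
H2-Ab1 probe 2: caaataaacgagacTcagactctg
H2-Ab1 probe 1: caaataaacgagacCcagactctg

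No array gave H2-Ea-ps a signal well above background, neither the 8 deficient nor the 8 wild-type ones. Its processed signal on slide 1 was 6.41, 7.16, 7.05 and 8.29 on deficient arrays 9 to 12, against 7.00, 6.80, 8.41 and 7.34 on wild-type arrays 2, 5, 6 and 8. On slide 2 it was 7.09, 8.55, 7.06 and 8.24 on deficient arrays 1 to 4, against 5.04, 6.28, 6.11 and 4.53 on wild-type arrays 1, 2, 3 and 5. Every one of these values was under the lowest signal called well above background on its own array, which ran from 24.5 to 34.8 on deficient arrays and from 17.7 to 33.4 on wild-type arrays. Surrogate values are recorded for dim spots, so these numbers may be such values, which was not looked up. Their order and the gap between genotypes on slide 2 are therefore not read as levels of the RNA. No fold is given, since both genotypes were dim. The signal known of H2-d B cells was thus not seen on the 8 arrays with the strain entry BALBC, and the reading of this probe was the same in kind, not above background, for both strain entries. The labels do not state an H2 haplotype for either genotype. No array showed the probe above background, so whether it can detect the transcript was not tested.

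**Figure D1:**
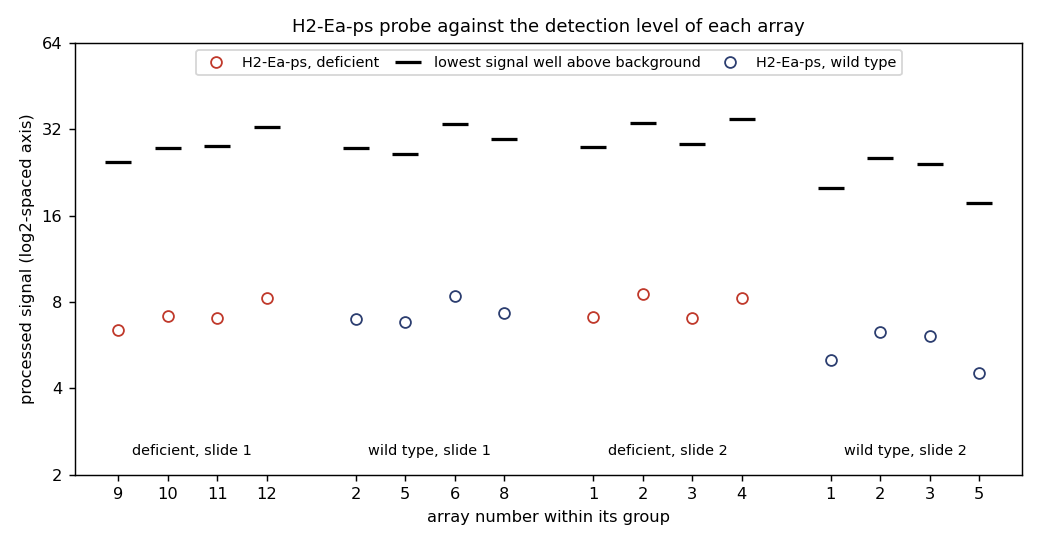
Processed signal of the H2-Ea-ps probe on each array (open circles, log2-spaced vertical axis) beside the lowest signal called well above background on that array (black dashes), with the array numbers of the labels along the horizontal axis. All 16 circles lie below their dash, with deficient arrays between 6.41 and 8.55 and wild-type arrays between 4.53 and 8.41. Such dim values may be surrogates, so differences among the circles are no reading of the RNA.

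Over both slides 0 of the 13 tested probes were higher in deficient cells and 1, H2-Aa, was lower, where 7.58% of all tested probes were called higher and 9.22% lower (16.8% in all). The median difference of the 13 was -0.09 on the log2 scale, and that of all tested probes was -0.03. At an unadjusted p under 0.05 there were 0 higher and 3 lower. On slide 1 the count was 0 higher and 2 lower with a median of -0.17, against 23.3% of all tested probes called (9.18% higher and 14.1% lower) and a median of -0.07. On slide 2 0 of the 13 passed limma's test and 0 had an unadjusted p under 0.05, with a median of -0.03, against 7.46% of all tested probes called (3.65% higher and 3.82% lower) and a median of 0.01. Differences are deficient minus wild type, levels are log2 signals relative to the array's 75th percentile, and a probe passed at an adjusted p under 0.05. In RNA of whole cell samples, fewer cells that express a gene and less of its RNA per cell cannot be told apart. Whether a probe matches the alleles of both strain entries equally well was not tested, so a difference in signal need not be one of RNA.

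H2-Aa, the alpha chain of I-A, was lower in deficient cells. Its level on slide 1 was 6.93, 6.95, 6.93 and 6.95 on deficient arrays 9 to 12, against 7.27, 7.30, 7.34 and 7.26 on wild-type arrays 2, 5, 6 and 8. The slide 2 levels were 5.62, 5.72, 5.59 and 5.67 on deficient arrays 1 to 4, against 5.71, 5.74, 5.82 and 5.77 on wild-type arrays 1, 2, 3 and 5. The genotypes did not overlap on slide 1, as was so for H2-DMb2 and no other of the 13 probes, and for 21.6% of all tested probes (14.1% with deficient lower and 7.52% with deficient higher). They overlapped on slide 2, where deficient array 2 stood above wild-type array 1. On that slide 0 of the 13 probes had genotypes apart, against 22.8% of all tested probes (9.76% with deficient lower and 13% with deficient higher). Over both slides the level fell by 0.23 (SE 0.04, adjusted p 0.00162), and on slide 1 it fell by 0.35 (SE 0.06, adjusted p 0.000997), with group means of 6.94 ± 0.01 in deficient and 7.29 ± 0.04 in wild-type cells (SD, n = 4 each). On slide 2 the difference was -0.11 (95% interval -0.23 to 0.01, adjusted p 0.285). The slides' differences themselves differed by 0.24 (95% interval 0.07 to 0.41), which did not pass (adjusted p 0.0629). Treating slide as a random block ended the call for the 2 slides together (adjusted p 0.0884), and the slide 1 call was lost after quantile normalization (-0.20, adjusted p 0.058) and in the authors' deposited table (-0.23, adjusted p 0.128).

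The partner chains did not pass. For H2-Ab1, the beta chain of I-A, probe 1 ranged from 8.42 to 8.70 on the deficient and from 8.62 to 8.92 on the wild-type arrays of slide 1. On slide 2 it ranged from 8.43 to 8.57 on deficient arrays and from 8.26 to 8.86 on wild-type arrays, the highest being array 5. Probe 2 ranged from 8.22 to 8.56 on deficient and from 8.47 to 8.80 on wild-type arrays of slide 1, and from 8.35 to 8.49 on deficient and from 8.20 to 8.81 on wild-type arrays of slide 2. The genotypes overlapped on both slides for both probes. Over both slides the difference was -0.07 for probe 1 (95% interval -0.25 to 0.11, adjusted p 0.616) and -0.09 for probe 2 (95% interval -0.28 to 0.09, adjusted p 0.511). The interval of either probe leaves room for a shift of the size measured for H2-Aa over both slides. The differences within slide 2 were small and their sign was not stable. Without wild-type array 5 of slide 2 the difference there was 0.12 for probe 1 and 0.10 for probe 2, instead of -0.01 and -0.03. The sign also turned for both probes with arrays scaled by their median (0.08 and 0.06). For probe 1 it turned too without deficient array 3 (0.0076) or deficient array 4 (0.0033) of slide 2.

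The signals of the 2 H2-Ab1 probes were set against each other within each array, and this was compared between genotypes. The probes are offset by 9 bases besides the 1-base difference, so the measure does not isolate that base. On slide 1 the log2 signal of probe 1 minus that of probe 2 was 0.173 ± 0.0379 on deficient and 0.146 ± 0.0297 on wild-type arrays (SD, n = 4 each), with an exact two-sided permutation p of 0.229 (0.457 adjusted over the 2 slides). On slide 2 it was 0.0688 ± 0.0438 on deficient and 0.0525 ± 0.0205 on wild-type arrays, with an exact permutation p of 0.543, which the adjustment leaves at 0.543. The smallest p such a test of 4 against 4 can give is 0.0286. The genotypes overlapped on both slides in this measure, so no difference between them in the relative signal of the 2 probe versions was detectable with these arrays. Whether the genotypes share the base at this position was not tested.

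H2-Eb1, the beta chain of I-E, had levels of 8.76, 8.93, 8.99 and 8.99 on deficient arrays 9 to 12 of slide 1, against 8.87, 9.22, 9.02 and 9.06 on wild-type arrays 2, 5, 6 and 8. On slide 2 they were 8.60, 8.57, 8.48 and 8.57 on deficient arrays 1 to 4, against 8.52, 8.50, 8.38 and 8.95 on wild-type arrays 1, 2, 3 and 5. The genotypes overlapped on both slides. H2-Eb1 was thus well above background on all 16 arrays, on none of which the probe of its alpha partner was. The difference over both slides was -0.08 (95% interval -0.25 to 0.10, adjusted p 0.571). Cd74, which encodes the invariant chain and lies on chromosome 18, had levels of 8.94, 9.14, 9.14 and 9.15 on the deficient arrays of slide 1, against 8.80, 9.19, 9.08 and 9.21 on the wild-type arrays. On slide 2 it ranged from 8.45 to 8.58 on deficient and from 8.30 to 8.56 on wild-type arrays, again with overlap. Its difference over both slides was 0.07 (95% interval -0.08 to 0.21, adjusted p 0.562). None of the spots of these genes was marked as saturated. H2-Ab1, H2-Eb1 and Cd74 were among the brightest, with at most 332 non-control spots brighter on any array. On the wild-type arrays of slide 1 the processed signal of H2-Eb1 ran from 343600 to 363529. The 75th percentile of those arrays ran from 576 to 768. Whether signals this bright still rise in step with the RNA was not tested, and their scaled levels carry that limit.

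**Figure D2:**
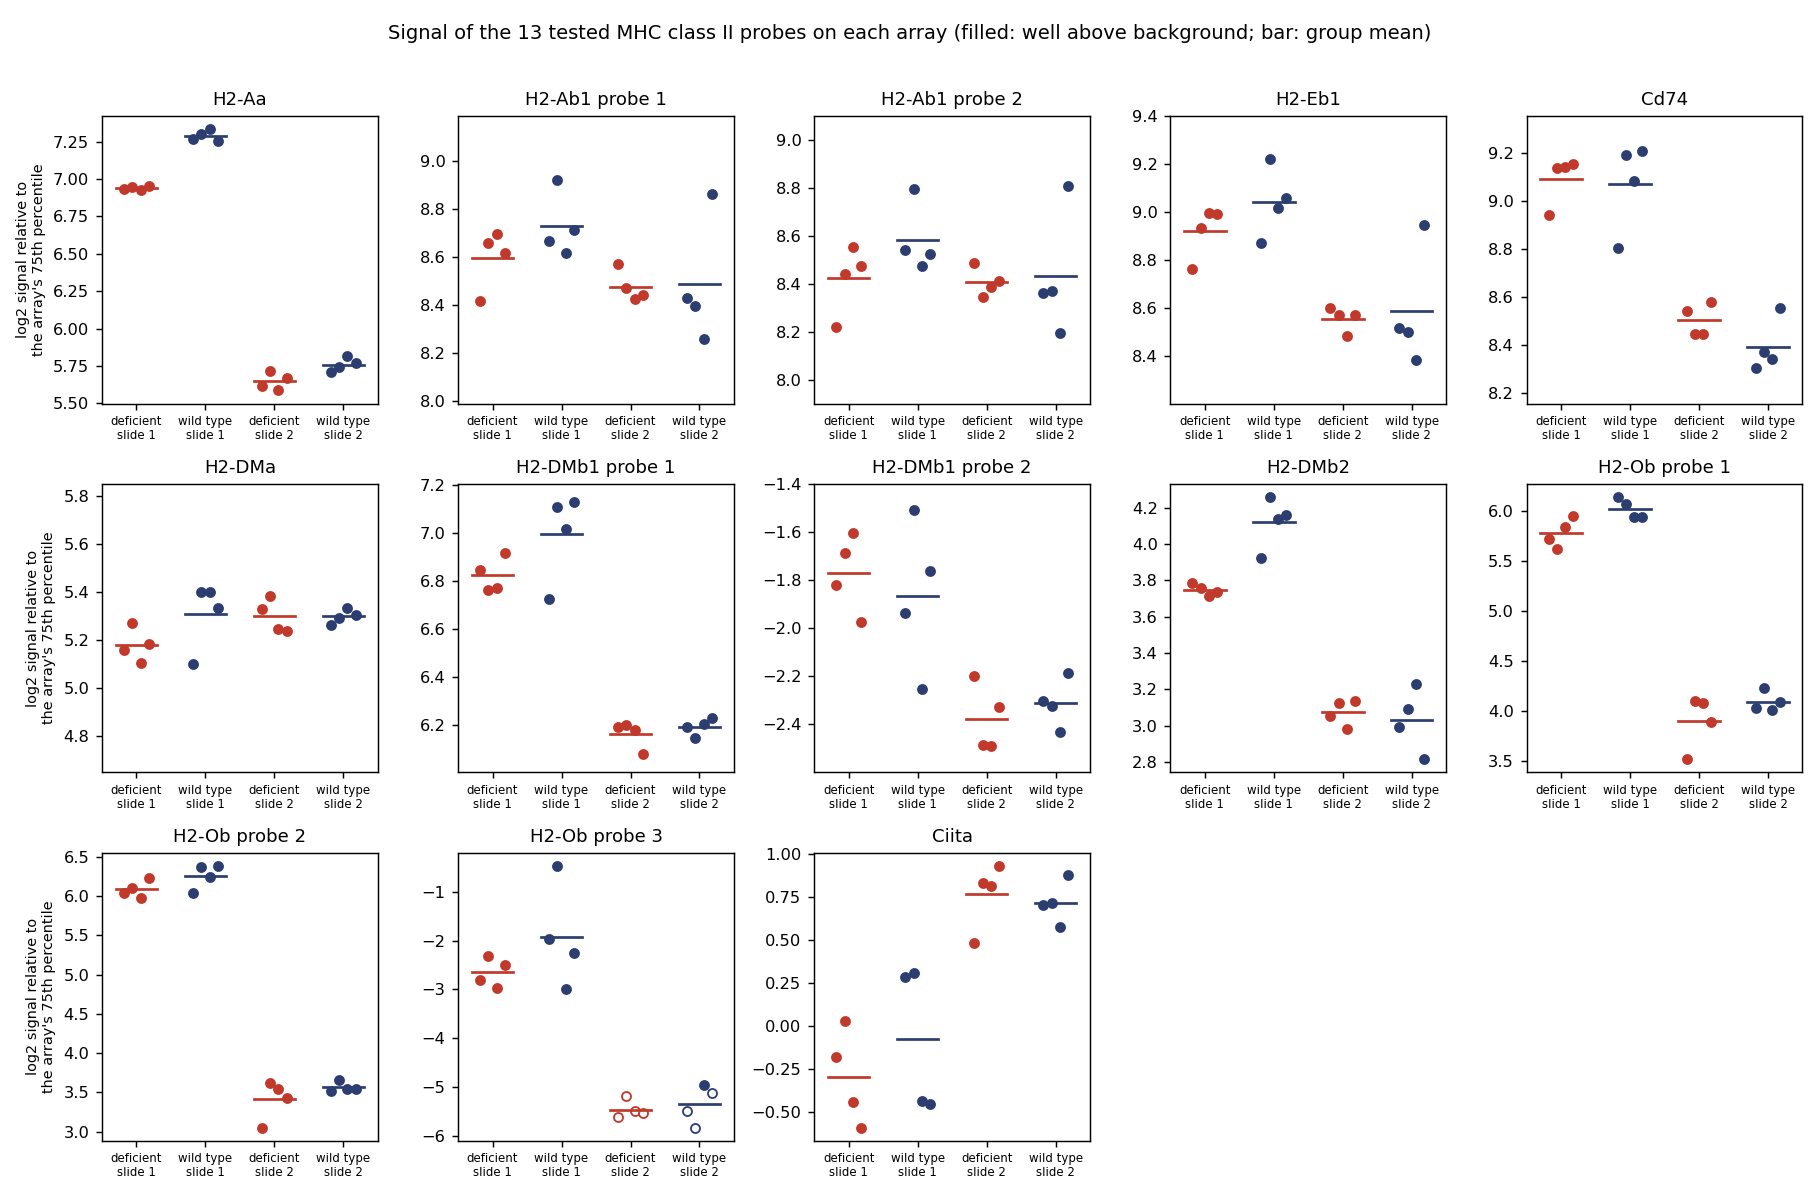
Level of each of the 13 tested probes on each array (vertical axes, log2 signal relative to the array's 75th percentile, with a different range in each panel) in the 4 groups of genotype and slide, with bars for group means. H2-Aa and H2-DMb2 show no overlap between genotypes on slide 1, and most probes stand lower on slide 2 in both genotypes, whereas Ciita stands higher.

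Among the peptide editors, H2-DMb2, a beta chain of H2-M, differed on slide 1. Its level there was 3.78, 3.76, 3.71 and 3.74 on deficient arrays 9 to 12, against 3.92, 4.26, 4.14 and 4.16 on wild-type arrays 2, 5, 6 and 8. Slide 2 gave 3.05, 3.13, 2.98 and 3.13 on deficient arrays 1 to 4, against 2.99, 3.09, 3.23 and 2.82 on wild-type arrays 1, 2, 3 and 5. The genotypes were apart on slide 1, with deficient lower, and interleaved on slide 2. The level fell by 0.37 on slide 1 (SE 0.09, adjusted p 0.0113), while the difference on slide 2 was 0.04 (95% interval -0.16 to 0.24, adjusted p 0.86). The 2 differences differed by 0.41 (SE 0.13, adjusted p 0.0497), 1 of 13 probes called in that comparison against 13.9% of all tested probes (8.72% higher and 5.14% lower). This call was lost under 4 of 8 alternatives and when any 1 of 14 of the 16 arrays was left out (adjusted p 0.0596 to 0.0938), and the slide 1 call was lost with slide 1 fitted alone (adjusted p 0.0527) and in the authors' deposited table (-0.28, adjusted p 0.0857). Over both slides H2-DMb2 differed by -0.17 (adjusted p 0.102), and it passed without wild-type array 5 of slide 2 (-0.20, adjusted p 0.0349). H2-DMb2 and H2-DMb1 are near-identical copies, so a signal on the probe of either may include RNA of the other.

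The 2 probes of H2-DMb1 lie at chr17:34297109-34297168 and chr17:34290109-34290168 (mm9), the second on a transcript with an Ensembl name. Probe 1 ranged from 6.76 to 6.92 on deficient and from 6.73 to 7.13 on wild-type arrays of slide 1, and from 6.08 to 6.20 on deficient and from 6.15 to 6.23 on wild-type arrays of slide 2. Probe 2 ranged from -1.97 to -1.60 on deficient and from -2.25 to -1.51 on wild-type arrays of slide 1, and from -2.49 to -2.20 on deficient and from -2.43 to -2.19 on wild-type arrays of slide 2. The genotypes overlapped throughout. The difference of probe 1 over both slides was -0.10 (95% interval -0.23 to 0.03, adjusted p 0.285), and that of probe 2 was 0.01 (95% interval -0.20 to 0.22, adjusted p 0.942). Wild-type array 2 of slide 1 was the lowest of its group for H2-DMb1 probe 1, H2-DMa and H2-DMb2. Without it, H2-DMb1 probe 1 was lower on slide 1 (-0.26, adjusted p 0.0155), as was H2-DMa (-0.20, adjusted p 0.0492), and H2-DMb2 was lower over both slides (-0.20, adjusted p 0.0454). With all arrays H2-DMa, the alpha chain of H2-M, had levels of 5.16, 5.27, 5.10 and 5.18 on the deficient arrays of slide 1, against 5.10, 5.40, 5.40 and 5.33 on the wild-type arrays. On slide 2 H2-DMa ranged from 5.24 to 5.38 on deficient and from 5.26 to 5.33 on wild-type arrays. It differed by -0.06 over both slides (95% interval -0.18 to 0.05, adjusted p 0.469).

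H2-Ob, the beta chain of the inhibitor H2-O, has 3 probes. Probe 1 was at 5.72, 5.62, 5.84 and 5.95 on deficient arrays 9 to 12 of slide 1, against 6.13, 6.07, 5.94 and 5.94 on wild-type arrays 2, 5, 6 and 8. Slide 2 gave levels of 3.52, 4.10, 4.08 and 3.89 on deficient arrays 1 to 4, against 4.03, 4.23, 4.02 and 4.09 on wild-type arrays 1, 2, 3 and 5. The genotypes overlapped on both slides, and the difference over both was -0.22 (95% interval -0.40 to -0.03), with adjusted p 0.102. Probe 2 ranged from 5.98 to 6.23 on deficient and from 6.04 to 6.39 on wild-type arrays of slide 1, and from 3.05 to 3.63 on deficient and from 3.52 to 3.66 on wild-type arrays of slide 2. Probe 2 differed by -0.16 (95% interval -0.34 to 0.02, adjusted p 0.212) over both slides. Neither passed on either slide. Probe 3, on a separate transcript record, was well above background on all 8 arrays of slide 1, on 0 of 4 deficient arrays of slide 2 and on 1 of 4 wild-type arrays of slide 2, so its genotypes are compared on slide 1 only. There it ranged from -2.96 to -2.32 on deficient and from -2.99 to -0.47 on wild-type arrays, with a difference of -0.73 (95% interval -1.57 to 0.11, adjusted p 0.191). Without wild-type array 6 of slide 1, probe 3 passed there at -1.08 (adjusted p 0.0459).

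Ciita, the regulator that the class II promoters share, did not differ past the threshold. Its level was -0.18, 0.03, -0.44 and -0.59 on deficient arrays 9 to 12 of slide 1, against 0.29, 0.31, -0.43 and -0.45 on wild-type arrays 2, 5, 6 and 8. The arrays of slide 2 gave 0.48, 0.83, 0.81 and 0.93 on deficient arrays 1 to 4, against 0.70, 0.71, 0.57 and 0.87 on wild-type arrays 1, 2, 3 and 5. The genotypes overlapped on both slides, and the wild-type arrays of slide 1 fell into a higher and a lower pair. The difference over both slides was -0.09 (95% interval -0.37 to 0.20, adjusted p 0.715). All of this rests on 1 probe, and whether other RNAs add to its signal was not tested.

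**Figure D3:**
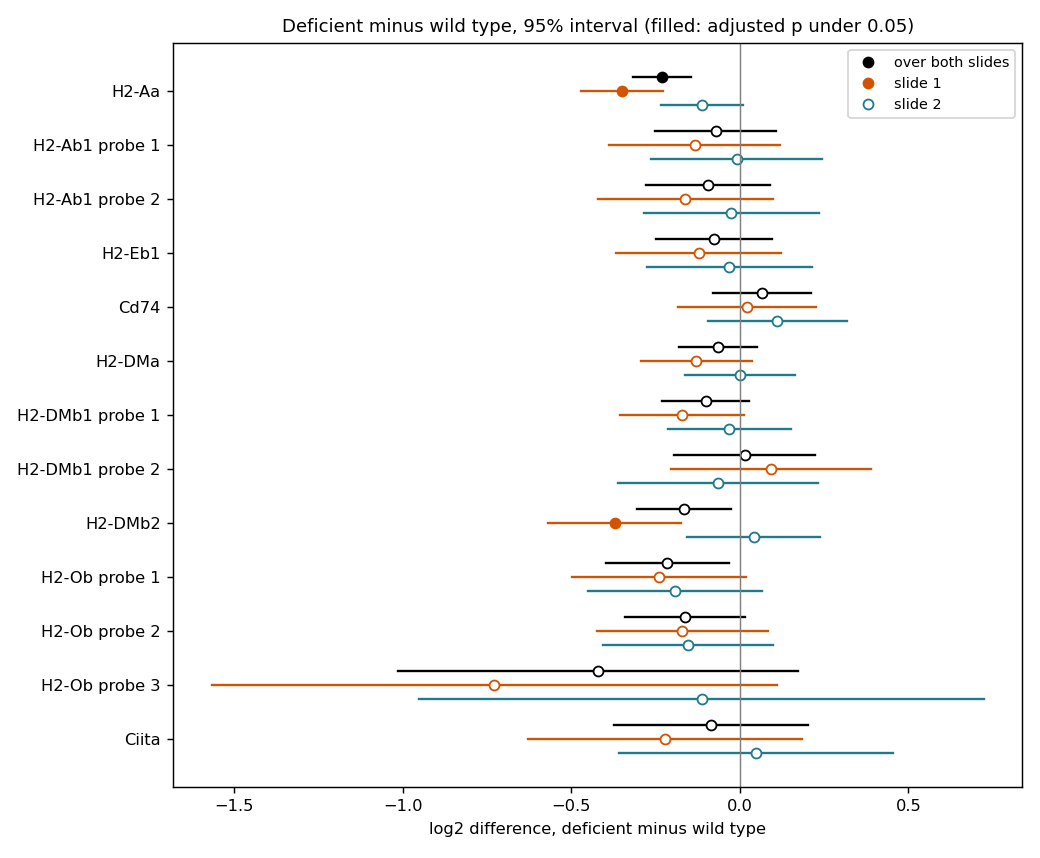
Log2 difference, deficient minus wild type, of each tested probe (points, filled where the adjusted p is under 0.05) with its 95% interval (lines), over both slides and on each slide. H2-Aa passed over both slides and on slide 1, H2-DMb2 passed on slide 1 and in neither other comparison, and all intervals for slide 2 include 0. H2-Ob probe 3 was not well above background in deficient cells of slide 2, so its points over both slides and on slide 2 are no reading of a difference.

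The larger contrast in these genes was between the slides. In deficient cells 9 of the 13 probes were lower and 1 higher on slide 2 than on slide 1 (all tested probes: 74.7% called, 25.6% lower and 49% higher), and in wild-type cells the counts were again 9 and 1 (all tested probes: 72.9% called, 25.3% lower and 47.7% higher). Averaged over the genotypes, 9 were lower, 1 was higher and 3 did not pass, with a median of -0.63, where 81.5% of all tested probes were called, 28.3% lower and 53.2% higher, with a median of 0.37. That last value depends on the scaling, being 0.03 when arrays were scaled by their median and 0.15 after quantile normalization. Relative to the median of all tested probes, 12 of the 13 lay below it and 1, Ciita, above it under each of the 3 scalings. Scaling by the 75th percentile and by the median each shift an array by 1 constant. Relative to that median these 2 scalings therefore agree by construction, and only quantile normalization could differ. H2-Ob probe 3 is among the 9 in each count and among the 12. It was well above background on all arrays of slide 1, and on 0 deficient and 1 wild-type array of slide 2. It was thus tested through slide 1, so its place in these counts follows from the filter.

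Leaving aside H2-Ob probe 3, which was tested through slide 1, H2-Ob probes 1 and 2 had the most negative slide differences among the members. On slide 2 against slide 1, probe 1 fell by 1.88 in deficient cells (adjusted p 3.83e-09) and fell by 1.93 in wild-type cells (adjusted p 3.63e-09). Probe 2 fell by 2.68 in deficient cells (adjusted p 1.07e-10) and fell by 2.70 in wild-type cells (adjusted p 1.29e-10). Probe 3 was at least 5.55-fold lower on slide 2 in deficient cells, where it has only a bound. No array of slide 2 reached the level of any array of slide 1 for probe 1 or probe 2. H2-Aa fell by 1.29 in deficient cells (adjusted p 1.08e-10) and fell by 1.53 in wild-type cells (adjusted p 3.29e-11), so its order of levels was wild type then deficient on slide 1, then wild type and deficient on slide 2, where the last 2 did not differ past the threshold. H2-DMb2 fell by 0.67 in deficient and fell by 1.09 in wild-type cells (adjusted p 1.2e-05 and 9.21e-08), the pair of values whose difference is the 0.41 given above.

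Smaller falls were found for H2-DMb1, Cd74 and H2-Eb1. H2-DMb1 probe 1 fell by 0.66 in deficient and fell by 0.80 in wild-type cells, and probe 2 fell by 0.61 in deficient and fell by 0.45 in wild-type cells. Cd74 fell by 0.59 in deficient cells (adjusted p 6.48e-05) and fell by 0.68 in wild-type cells (adjusted p 1.81e-05). H2-Eb1 fell by 0.36 in deficient cells (adjusted p 0.00973) and fell by 0.46 in wild-type cells (adjusted p 0.00231). The H2-Ab1 probes did not pass, with slide differences of -0.18 (95% interval -0.36 to -0.0023, adjusted p 0.0579) and -0.08 (95% interval -0.27 to 0.10, adjusted p 0.384) averaged over the genotypes. Without wild-type array 5 of slide 2, H2-Ab1 probe 1 passed at -0.24 (adjusted p 0.00284). Leaving out array 9, a deficient array of slide 1, also gave a call for this probe (-0.21, adjusted p 0.0346). The 2 chains of I-A thus gave different slide changes, -1.41 for H2-Aa and -0.18 and -0.08 for H2-Ab1, and the difference between genes was not tested. H2-Ab1 is among the bright genes for which a signal rising in step with the RNA was not tested.

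H2-DMa did not pass between slides and Ciita rose. H2-DMa differed between slides by 0.06 (95% interval -0.06 to 0.17, adjusted p 0.351), and the sign of this value turned when arrays were scaled by their median (-0.28, adjusted p 0.00112) or quantile normalized (-0.42, adjusted p 3.89e-07). Relative to the median of all tested probes it was -0.32, -0.32 and -0.57 under the 3 scalings, the first 2 being equal by construction. Ciita rose by 1.06 in deficient cells (adjusted p 0.000156) and by 0.79 in wild-type cells (adjusted p 0.00181), and relative to that median it stood at 0.55, 0.55 and 0.73. Every array of slide 2 was above every array of slide 1 for Ciita. This rise too rests on 1 probe, and whether other RNAs add to its signal was not tested.

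**Figure D4:**
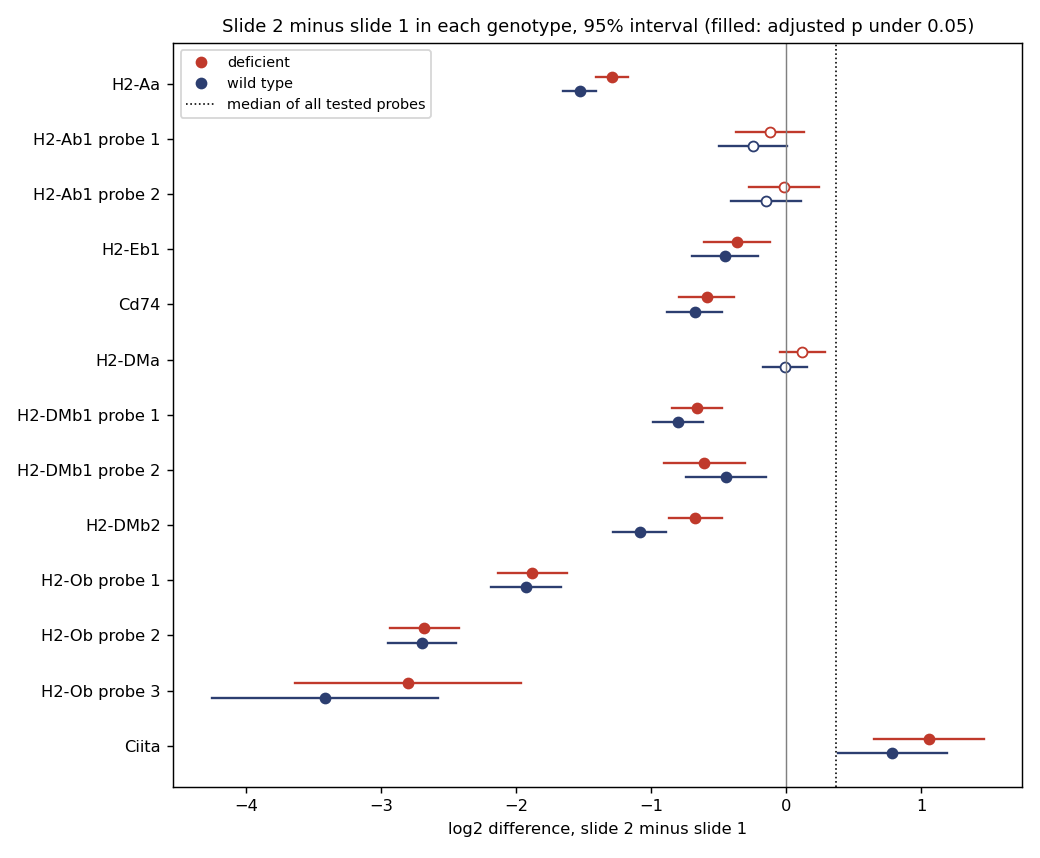
Log2 difference, slide 2 minus slide 1, of each tested probe in deficient and in wild-type cells (points, filled where the adjusted p is under 0.05) with 95% intervals, and the median of all tested probes as a dotted line at 0.37. The H2-Ob probes and H2-Aa lie farthest to the left in both genotypes, and Ciita alone lies to the right of the dotted line.

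Markers of other cells also differed between the slides, as did 81.5% of all tested probes (28.3% lower and 53.2% higher). Averaged over the genotypes, all 10 tested macrophage markers (of 12 listed) were lower on slide 2, with a median of -5.63. Their summed linear level, in units of the array's 75th percentile, ranged from 6.52 to 8.51 in deficient and from 7.10 to 7.60 in wild-type cells of slide 2, against 84.5 to 149.9 in deficient and 63.2 to 158.7 in wild-type cells of slide 1. C1qa, C1qc and Vcam1 were well above background on every array of slide 1 and on none of slide 2. They were therefore tested only through slide 1, and their place among the 10 lower markers follows from the filter. Their slide 2 values are no reading of the RNA, so the median of -5.63, which includes them, is no measured size. Markers of the other lists may share this limit, since 4 arrays well above background were enough for a test. Of 9 tested dendritic cell markers (of 10 listed) 3 were higher and 6 lower on slide 2, and their summed level overlapped between slides, at 205.5 to 231.5 in deficient and 193.3 to 235.1 in wild-type cells of slide 2, against 204.2 to 229.2 in deficient and 219.3 to 268.6 in wild-type cells of slide 1. Of 10 B cell markers 7 were lower and 0 higher on slide 2 (median -1.03), among them Cr2, a complement receptor, at -6.59, while Ms4a1 (0.11, adjusted p 0.0673) did not pass. The defining B cell markers Cd79a, Cd79b and Ms4a1 were well above background on all 16 arrays. Of the other marker lists, the counts higher and lower on slide 2 were 1 and 6 of 8 for T cells, 0 and 5 of 5 for NK cells, 2 and 5 of 7 for neutrophils, 2 and 3 of 5 for plasma cells and 0 and 3 of 3 for erythroid cells. The summed level of the T cell markers was nevertheless higher on slide 2, at 70.9 to 115.5 in deficient and 67.8 to 103.1 in wild-type cells. On slide 1 it was 37.3 to 44.0 in deficient and 36.0 to 41.8 in wild-type cells. The part of these other cells in the class II slide differences was not tested. Of all tested probes, 7.58% were higher and 9.22% lower in deficient cells over both slides, and 9.18% and 14.1% on slide 1. Between deficient and wild-type cells over both slides the counts higher and lower were 0 and 0 of 10 for macrophages, 1 and 1 of 10 for B cells, 1 and 1 of 9 for dendritic cells, 2 and 0 of 8 for T cells, 0 and 0 of 5 for NK cells, 1 and 0 of 7 for neutrophils, 0 and 0 of 5 for plasma cells and 2 and 0 of 3 for erythroid cells. On slide 1, where H2-Aa and H2-DMb2 passed, they were 0 and 0 for macrophages, 0 and 2 for B cells, 3 and 2 for dendritic cells, 1 and 0 for T cells, 0 and 0 for NK cells, 1 and 0 for neutrophils, 2 and 0 for plasma cells and 0 and 0 for erythroid cells. The plasma cell markers had a median difference of 0.70 on slide 1 and of -1.35 on slide 2, where 0 were higher and 3 lower, and 4 of the 5 passed the test of the difference between slides. On slide 2 the erythroid counts were 2 and 0 of 3. Of all tested probes, 3.65% were higher and 3.82% lower on slide 2, and 13.9% passed the test of the difference between slides. The part of these markers in the class II differences on slide 1 was not tested.

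The genes that act with class II in B cells were described from lists of names. Of 25 tested regulators of class II transcription, 4 were higher and 3 lower in deficient cells over both slides, with a median of 0.07. Of all tested probes, 7.58% were higher and 9.22% lower in that comparison. Among the RFX subunits, Rfx5, which binds DNA, rose by 0.20 (adjusted p 0.0312), Rfxank fell by 0.26 (adjusted p 0.0128) and Rfxap differed by 0.10 (adjusted p 0.685). Socs1, a feedback inhibitor of cytokine signalling, rose by 0.74 (adjusted p 0.00464). Socs1 differed by 1.69 on slide 1 and by -0.22 on slide 2 (adjusted p of the difference between slides 0.00227). Carm1, a coactivator, rose by 0.29 (adjusted p 0.0382), whereas Irf4, a B cell transcription factor, fell by 0.47 (adjusted p 0.0101) and Zfp36l1, an RNA-decay factor, fell by 0.32 (adjusted p 0.0116). Zfp36l1 differed by -0.69 on slide 1 and by 0.05 on slide 2 (adjusted p of the difference between slides 0.00827).

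Of 29 tested genes of antigen processing and class II traffic, 2 were higher in deficient cells and 6 lower (median -0.03). The shares of all tested probes were again 7.58% higher and 9.22% lower. March8 and March1 encode related ubiquitin ligases that remove class II from the surface, and they moved oppositely. March8 rose by 1.19 (adjusted p 0.000649) and March1 fell by 0.42 (adjusted p 0.00369). The protease Ctsl fell by 0.88 (adjusted p 0.00375) and Ctsh fell by 0.22 (adjusted p 0.0493), whereas Ctss, the cathepsin that trims the invariant chain in B cells, differed by 0.02 (adjusted p 0.866). Of the tetraspanins known to associate with class II, Cd9 fell by 0.79 (adjusted p 0.000114), Cd81 fell by 0.34 (adjusted p 0.004) and Cd82 fell by 0.16 (adjusted p 0.0284), while Cd37 differed by 0.26 (adjusted p 0.0769). The Cd82 difference itself differed between slides (adjusted p 0.00546), at -0.41 on slide 1 and 0.09 on slide 2. Lag3, a receptor that binds class II, rose by 0.64 (adjusted p 0.00948). The Lag3 difference was 1.21 for slide 1 and 0.07 for slide 2, and these differed (adjusted p 0.023). Ifi30, the lysosomal thiol reductase, differed by 0.12 (adjusted p 0.4). H2-Oa, the alpha partner of H2-Ob, differed by -0.06 between genotypes (adjusted p 0.655) and fell by 2.07 on slide 2 relative to slide 1 (adjusted p 3.26e-12). H2-Eb2, another beta chain gene of the E type, differed by -0.19 between genotypes (adjusted p 0.175) and fell by 1.85 on slide 2 relative to slide 1 (adjusted p 7.61e-11).

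The class II genes on chromosome 17 lie among genes of other function. Of 35 tested neighbours, 9 were higher and 1 lower in deficient cells (all tested probes: 7.58% higher and 9.22% lower), with a median of -0.02. Those that rose included genes of class I presentation and complement, namely Tap1 (0.53), Psmb9 (0.45), H2-K1 (0.29) and C4b (0.81 over both slides, 1.72 for slide 1, -0.10 for slide 2), and also Btnl2 (0.31) and Daxx (0.28). Cfb, a complement factor, rose by 2.55 on slide 1 (adjusted p 0.00215) and was not well above background in either genotype on slide 2. Prrt1 fell by 0.52 (adjusted p 0.0128). Of 14 other tested MHC genes, all of class I type, 7 were higher and 0 lower (median 0.25), namely H2-T9 (0.99), H2-Q7 (0.37), H2-Q10 (0.36), H2-K1 (0.29, also counted as a neighbour), H2-M2 (0.28), H2-Q2 (0.25) and H2-D1 (0.24). Of these, H2-Q7 and H2-M2 differed between slides (adjusted p 0.0103 and 0.0248), H2-Q7 at 0.71 on slide 1 and 0.03 on slide 2, and H2-M2 at 0.55 on slide 1 and 0.0048 on slide 2.

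Genes with the pattern most like that of H2-Aa over the 16 arrays were sought among 22667 tested genes, each centred on its own mean. By root mean square difference they were Tspan32 (0.0792), Atp5sl (0.102), Arhgap39 (0.102), R3hdm2 (0.104) and Fam134c (0.109). Among the members the nearest was H2-DMb2 (0.285), followed by H2-Ob probe 1 (0.291) and H2-DMb1 probe 1 (0.359), and the farthest was Ciita (1.19). H2-Ab1, whose protein pairs with that of H2-Aa, stood at 0.638 and 0.685.

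Since Ciita acts through the X and Y boxes, the promoter windows of the members were searched for their letters. RefSeq windows (GRCm38.p6, 250 bases before to 50 after the start) were at hand for H2-Aa, H2-Eb1, H2-DMa, H2-DMb1, H2-DMb2 and H2-Ob, and none for H2-Ab1, H2-Ea-ps, Cd74 and Ciita. On either strand the Y box letters GATTGG occur in 16.1% of 32851 such windows, the X box letters ACNGATG in 9.85% and both in 1.52%. In the order X then Y on the gene's strand, 10 to 30 bases apart, a spacing chosen after the windows were seen, they occur in 8 windows (0.0244%). These belong to H2-Eb1, H2-DMb1, H2-DMb2, H2-Eb2, BC051142, Bpifb4, Pfkfb1 and Scaper. The windows of 3 members around both sets of letters and that of H2-Aa around the Y letters are shown with the letters in capitals, at chr17:34305767-34305820 (H2-Eb1, plus strand), chr17:34153088-34153142 (H2-DMb1, plus strand), chr17:34145117-34145171 (H2-DMb2, plus strand) and chr17:34287859-34287914 (H2-Aa, minus strand).
H2-Eb1 promoter: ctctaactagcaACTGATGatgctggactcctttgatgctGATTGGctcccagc
H2-DMb1 promoter: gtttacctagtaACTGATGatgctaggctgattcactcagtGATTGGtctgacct
H2-DMb2 promoter: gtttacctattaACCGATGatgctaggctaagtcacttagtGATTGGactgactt
H2-Aa promoter: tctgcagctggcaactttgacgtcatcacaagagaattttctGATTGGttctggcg
The letters lie 21 bases apart in H2-Eb1 and 22 in H2-DMb1 and H2-DMb2. H2-Ob has the Y letters at -58 from the start and not the X letters as spelled here, and H2-DMa has the Y letters in 1 of 2 windows. Of the 3 genes with the spaced pair, all were lower on slide 2 in both genotypes, as were H2-Aa and H2-Ob without it. H2-DMa, also without it, did not pass between slides (0.06, adjusted p 0.351). Of all tested probes, 25.6% were lower on slide 2 in deficient cells and 25.3% in wild-type cells.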

How the data were processed

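The intensity of each spot comes from the scanner files the authors deposited. Their headers name Agilent Feature Extraction 10.7.3.1 and record background subtraction and detrending within the array, surrogate values for dim spots and mm9 coordinates. No normalization between arrays is recorded there. A log2 value table that the authors deposited was used within slides as an alternative. How it was made is not given in the sources used here, except that the submitters' processing notes name limma for slide 2.

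Of 62976 spots, 3671 controls were left out. On slide 1 arrays the 75th percentile of processed signal was 576 to 851 with 26065 to 29250 probes well above background. On slide 2 arrays these were 596 to 990 and 29961 to 34193. Log2 signal minus that percentile was fitted with limma 3.58.1 (R 4.3.3), 1 mean per group of genotype and slide, and p-values were adjusted by Benjamini-Hochberg over all 32881 tested probes. The fit was tested on simulated data. Intervals are 95%, and the number of arrays limits the precision. A probe dim on every array of a group has a bound only, from the lowest signal well above background. Named genes were all members, and of each list those past the threshold over both slides, up to 8 by size, plus Rfx5, Rfxank, Rfxap, Ctss, Ifi30, H2-Oa, H2-Ea and H2-Eb2, where the array has no probe named H2-Ea. Some items that this rule names are not reported here. For lists the brightest tested probe stood for a gene. Marker lists of T cells, NK cells, neutrophils, plasma cells and erythroid cells were also read. Members and lists were chosen with earlier results of these data known. Alternatives were other scalings, normexp, other filters, array weights, slide blocks, each slide alone, the authors' table and each array left out.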

Additional observations from a re-analysis of the deposited data

Results flagged for a closer look

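The difference between genotypes of H2-DMb2 itself differed between the slides, by 0.413 on the log2 scale (limma, adjusted p 0.0497), its slide 1 difference being -0.37 and its slide 2 difference 0.04. The genotypes held separate positions on each slide, in reversed order, so this value cannot be told apart from an effect of position, which was not tested. For Cd74 on the deficient arrays of slide 1, array 9 stood at 8.94 and the next at 9.14, a gap of 0.923 of the group's range. This was 1 of 52 groups of 4 arrays examined, where chance marks about 1 in 20. Without that array the slide 1 difference of Cd74 was 0.07 (adjusted p 0.657).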

How the results depend on the processing

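Of the single-probe values under the alternatives, 23 lost a call and 17 gained one with the sign kept. The sign changed in 73, of which 71 passed neither as reported nor under the alternative. The other two passed under the alternative, both H2-DMa between slides (-0.28 with median scaling and -0.42 after quantile normalization). The count of members called over both slides was 2 with array weights and 0 with slide as a random block (correlation 0.81), and 1 to 3 with each array left out (3 without wild-type array 2 of slide 1, 2 without wild-type array 5 of slide 2). On slide 1 it was 1 after quantile normalization, 1 with slide 1 fitted alone, 0 in the authors' deposited table, and 2 to 4 with each array left out (4 without wild-type array 2 of that slide). For the difference between the slides it was 0 after quantile normalization, without a filter and with dim values at the floor, 2 with the brightest probe per gene and with array weights, and 0 to 1 with each array left out. With normexp it was 1, but the probe was H2-Aa (adjusted p 0.0423) and not H2-DMb2 (adjusted p 0.06). After quantile normalization the H2-Aa interaction was -0.03. Between slides the count was 13 with either other scaling. Of all probes called over both slides 45.1% were higher, and 59.8% with median scaling. On slide 2 the numbers 1, 2 and 3 occur in both genotypes, with correlations of deviations of 0.01, 0.10 and 0.06, so they were not taken as pairs. The replicate block there gave 0 calls, and not every array correlated best with its own number. H2-Ob probe 3 is too dim on slide 2 for more than a bound.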
